A study of Homo sapiens with 6 samples.

Results

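Genes used as markers of breast cancer stem cells were followed in MDA-MB-231, an established human cell line of triple-negative breast cancer that looks and behaves mesenchymal. The set was 10 named genes, CD44, PROM1, ALDH1A1, ALDH1A3, SOX2, KLF4, SOX9, SALL4, LIN28B and BMI1. A gene was read from an array transcript cluster (all probes that the design places on 1 locus) annotated with its symbol alone, and from the brightest such cluster where there were several. In this way 9 of the 10 were measured, of 18417 genes in all. BMI1 lay on a cluster that also carries the read-through gene COMMD3-BMI1, so no value is given for it.

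The control group, which the titles call untreated, comprised 3 arrays, and the other 3 arrays came from cells given selamectin at 1 µM for 24 h. The protocol mentions a vehicle control instead, so it remains unclear what these cultures were given. All cultures were the same parental line in the same medium, with no genetic change stated. Selamectin, an avermectin given to pets against parasites, is presented in the series title as an inhibitor of SIN3, a corepressor that tethers histone deacetylases to genes.

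Breast cancer cells that start tumours have been enriched by sorting for high CD44 with low CD24, by high aldehyde dehydrogenase activity, and by surface PROM1 (CD133). SOX2, KLF4, SALL4 and LIN28B belong to the circuitry of pluripotent cells and are re-expressed in some tumours, while SOX9 serves mammary progenitors and BMI1 is a polycomb subunit of self-renewing cells. MDA-MB-231 cells are known for high CD44 and low CD24. A transcript level in a culture is an average over its cells: fewer cells of a type and less RNA per cell cannot be told apart.

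Values are log2 expression values, on which a difference of 1 is a doubling. Array medians lay between 7.47 and 7.51. Pairs of arrays within a group had r of 0.9949 to 0.9971 across genes. The first principal component (45.8% of the variance) separated the groups, and the second (20.8%) set selamectin array 3 apart with a score of 18.5, against scores from -9.83 to 3.97 for the other arrays. All 6 markers of a mesenchymal breast line (VIM, CD44, FN1, CAV1, AXL, MSN) lay above the array median, and 5 of 6 genes that are low in triple-negative mesenchymal lines lay below it, with ERBB2 above at a mean of 9.12. None of 7 leukocyte markers lay above the median, and 2 of 6 endothelial markers and 2 of 7 fibroblast markers did. Of these 20 markers of other cell types, PDGFRB alone passed the test (0.34). The endothelial marker CDH5 had a larger change, -0.59 with all selamectin arrays lower, without passing (limma adjusted p = 0.0672). The fibroblast list averaged 6.60 to 6.68 on untreated and 6.69 to 6.73 on selamectin arrays. Any part of this in the results below was not tested.

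CD44 was the 1 stem cell marker that passed the test, and it was higher after selamectin. CD44 encodes the cell-surface receptor for hyaluronan. It read 10.44, 10.47 and 10.54 on the untreated arrays and 10.99, 10.87 and 10.85 on the selamectin arrays. All 3 selamectin arrays lay above all 3 untreated arrays, with a gap of 0.31 between the nearest values. The means were 10.48 ± 0.053 and 10.91 ± 0.074 (SD, n = 3), a 1.34-fold rise (log2 change 0.42 ± 0.085 SE, 95% interval 0.24 to 0.61, limma adjusted p = 0.0201). The call depended on single arrays: leaving out untreated array 1 or 3 gave an adjusted p of 0.0870 or 0.0719, and leaving out selamectin array 1 or 2 gave 0.0644 or 0.0766. It held without untreated array 2 (0.0474) and without selamectin array 3 (0.0135). A fit of all 33297 clusters gave 0.0650. Leaving out arrays kept the log2 change between 0.38 and 0.45.

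The other 8 markers did not pass. Of the 9 measured, 1 rose and 0 fell in limma at an adjusted p of 0.05, and 2 had an unadjusted p under 0.05. Over all 18417 genes, 444 rose (2.41%) and 420 fell (2.28%), 4.69% together, and 19.9% had an unadjusted p under 0.05. The groups did not overlap for 2 of 9 markers, 1 in each direction. The same held for 25.3% of all genes, 16% upward and 9.3% downward. The median log2 change of the 9 was 0.038, beside 0.044 for all genes, and the median size of change was 0.11 beside 0.10. By count and by median, the markers were close to the background of the arrays. Given each gene's limma standard error, a log2 change between 0.20 for LIN28B and 0.41 for ALDH1A3 would have been needed to pass. That error draws a gene's own spread toward the trend over genes of like intensity. LIN28B was dim, and changes of dim genes come out compressed.

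**Figure D1:**
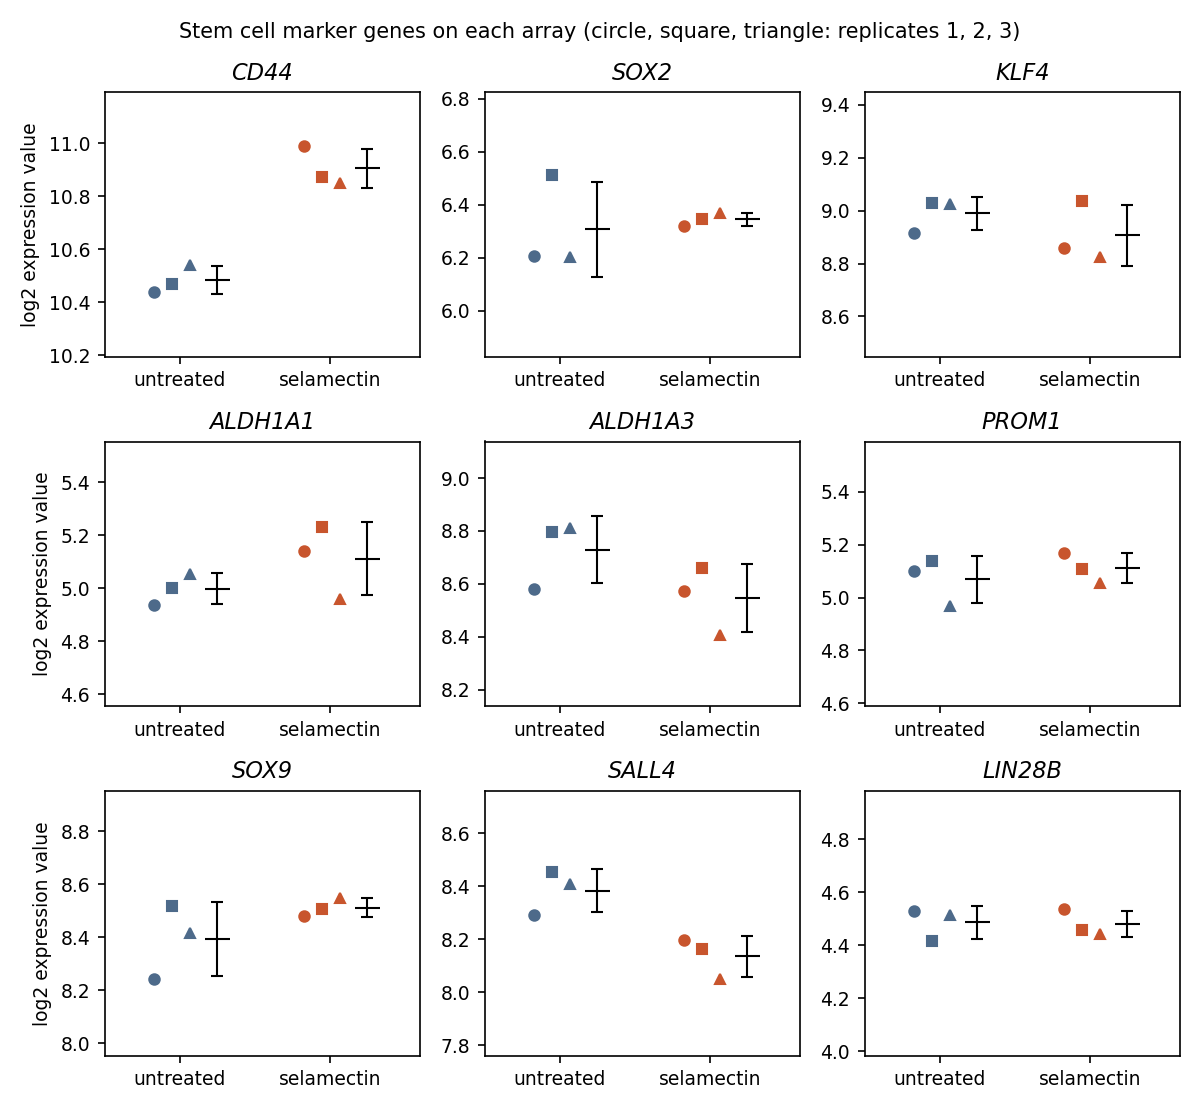
Log2 expression values of the 9 measured markers on each array, 3 untreated (blue) and 3 selamectin (orange), with the group mean and SD as bars; each panel spans 1 log2 unit. CD44 and SALL4 have groups that do not overlap, CD44 upward by 0.42 and SALL4 downward by 0.25, and the groups of the other 7 overlap.

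The start of CD44 is shown because it was the marker that rose. The 250 bases before its RefSeq start site lie at chr11:35138921-35139170 (GRCh38.p14, plus strand), written 5′ to 3′ with GC boxes in capitals.
CD44 upstream: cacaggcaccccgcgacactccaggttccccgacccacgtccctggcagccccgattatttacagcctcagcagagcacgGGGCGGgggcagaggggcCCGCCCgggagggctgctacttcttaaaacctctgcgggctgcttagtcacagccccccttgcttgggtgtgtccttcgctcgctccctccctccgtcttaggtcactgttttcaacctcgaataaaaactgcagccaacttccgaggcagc
The window was searched on both strands for the GC box of SP and KLF factors (GGGCGG), the E-box of MAX dimers (CACGTG), the AP-1 site (TGACTCA) and the TATA box (TATAAA). It held 2 GC boxes and none of the other motifs. Markers that did not pass also had GC boxes in their windows, among them ALDH1A3 (6), KLF4 (4) and SOX2 (1), while ALDH1A1 had 0. Over 35116 RefSeq windows of the same length, 42.6% held a GC box, 6.34% the E-box, 4.2% the AP-1 site and 10.7% the TATA box. Such a match describes the letters and is not a measured binding site. The promoter table matched 8 of the 10 genes; SOX9 and SALL4 were not among them.

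PROM1, the pentaspan membrane protein prominin-1, read 5.10, 5.14 and 4.97 untreated and 5.17, 5.11 and 5.06 with selamectin. These groups overlapped. The log2 change of PROM1 was 0.041, and its 95% interval, from -0.10 to 0.18, leaves room for a fold between 0.935 and 1.13 (limma adjusted p = 0.752).

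The aldehyde dehydrogenases ALDH1A1 and ALDH1A3 oxidise retinaldehyde to retinoic acid and account for much of the enzyme activity used to sort stem-like cells. ALDH1A1 read 4.94, 5.002 and 5.06 untreated and 5.14, 5.23 and 4.96 with selamectin. Selamectin arrays 1 and 2 were above every untreated array and array 3 was below the untreated median. The log2 change was 0.11 (95% interval -0.048 to 0.27, limma adjusted p = 0.426). ALDH1A3 read 8.58, 8.80 and 8.81 untreated and 8.57, 8.66 and 8.41 with selamectin, so the groups overlapped through untreated array 1. Its log2 change was -0.18 (95% interval -0.41 to 0.049, limma adjusted p = 0.369). A second, dimmer ALDH1A3 cluster, based on a single deposited cDNA, changed by 0.060 (95% interval -0.14 to 0.26 in the fit of all clusters). The 2 ALDH1A3 clusters thus differed in sign, and neither passed.

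Among the transcription factors, SALL4 stood farthest from zero. SALL4, a zinc finger protein of embryonic stem cells, read 8.29, 8.45 and 8.41 untreated and 8.20, 8.16 and 8.05 with selamectin. All 3 selamectin values lay below the untreated ones, the nearest by 0.097. The means were 8.38 ± 0.083 and 8.14 ± 0.077 (SD, n = 3), a log2 change of -0.25 ± 0.093 SE (95% interval -0.45 to -0.044). SALL4 did not pass in limma (unadjusted p = 0.0216, adjusted p = 0.164). With array weights it passed (-0.24, adjusted p = 0.0396), a fit in which untreated array 3 had a weight of 5.11 and the other arrays between 0.447 and 1.22. Over all 16 alternative settings its adjusted p lay between 0.0396 and 0.374.

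SOX2, the pluripotency factor, read 6.20, 6.51 and 6.20 untreated and 6.32, 6.35 and 6.37 with selamectin. The untreated arrays spanned both ends of the range, with array 2 the highest of the 6. The log2 change of SOX2 was 0.038 (95% interval -0.16 to 0.24, limma adjusted p = 0.854), and its sign turned without untreated array 1 (-0.014) or untreated array 3 (-0.015). SOX9, a factor of mammary progenitors, read 8.24, 8.52 and 8.42 untreated and 8.48, 8.51 and 8.55 with selamectin, a log2 change of 0.12 (95% interval -0.097 to 0.33, limma adjusted p = 0.538). Without untreated array 1, the lowest of the 6, the change of SOX9 was 0.044. For both SOX genes the selamectin arrays lay within a narrower band (SD 0.024 and 0.035) than the untreated arrays (SD 0.18 and 0.14). That difference of spread was not tested and was not particular to these markers. SOX17 (SD 0.29 untreated, 0.032 selamectin) and SOX5 (0.23, 0.038) also had it. SOX13 (0.029, 0.20) and SOX4 (0.073, 0.11) had the reverse.

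KLF4, a zinc finger reprogramming factor, read 8.92, 9.03 and 9.02 untreated and 8.86, 9.04 and 8.83 with selamectin. Selamectin array 2 was the highest of all 6 and the other selamectin arrays were the lowest. The log2 change of KLF4 was -0.082 (95% interval -0.29 to 0.13, limma adjusted p = 0.673). LIN28B, the RNA-binding protein that blocks let-7 maturation, read 4.53, 4.42 and 4.51 untreated and 4.54, 4.46 and 4.44 with selamectin. Its log2 change was -0.0069 (95% interval -0.12 to 0.11, limma adjusted p = 0.956), and its sign turned when the arrays were centred on their medians (0.0064) or quantile-normalized again (0.0023). The values of SOX2, ALDH1A1, PROM1 and LIN28B lay in the lowest 25% of genes, and without detection calls it is not known whether they were above background.

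**Figure D2:**
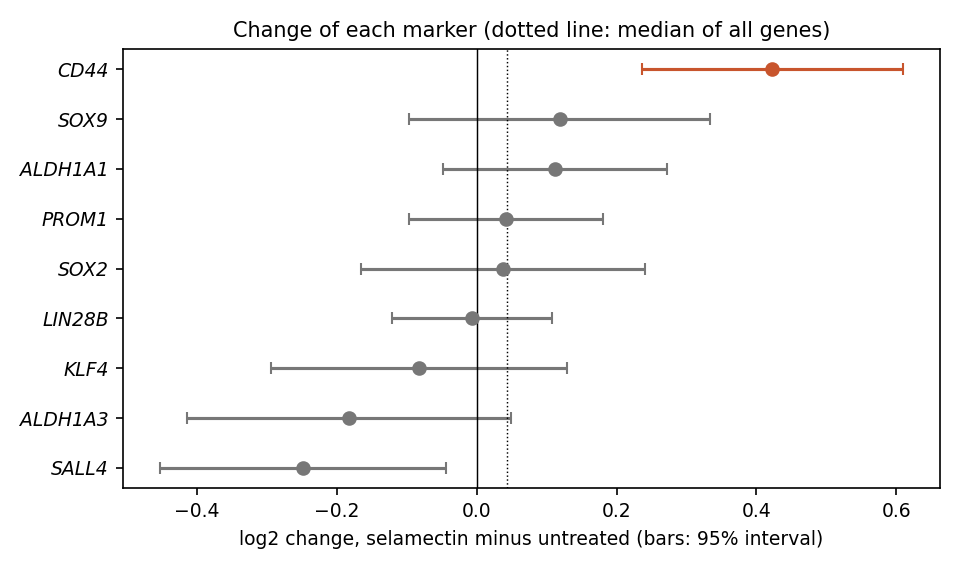
Log2 change (selamectin minus untreated) of the 9 markers with its 95% interval from limma, ordered by size; the dotted line is the median of all genes, 0.044. CD44 (orange) passed the adjusted threshold, the interval of SALL4 ends at -0.044 below zero without passing, and the intervals of the other 7 cross zero.

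The expression pattern of CD44 over the 6 arrays was shared by many genes. Genes whose arrays differed by at least 0.5 were compared, leaving out small RNA and placeholder symbols. Among these 3309 genes, 283 had a Pearson r above 0.9 with CD44. The 5 closest were ELAPOR1 (r = 0.996), an endosomal and lysosomal protein, the matricellular protein CCN3 (0.994), the ribosome assembly kinase RIOK2 (0.991), the vesicle traffic GTPase RAB8A (0.991) and the cleavage stimulation factor CSTF2 (0.991). The points share the treatment contrast and the same 6 arrays, and these values are a description.

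Other surface and efflux markers of breast stem and progenitor cells changed in both directions. Of 19 measured, 2 rose and 3 fell, beside 2.41% and 2.28% of all genes, with a median log2 change of -0.087. MUC1, a membrane mucin of luminal epithelium, rose from 9.94, 9.81 and 9.88 to 10.65, 10.91 and 10.61 (0.84, limma adjusted p = 0.0040). TSPAN8, a tetraspanin, rose by 0.29, from values between 4.84 and 4.99 to values between 5.13 and 5.28 (adjusted p = 0.0338). These values lie in the lowest 25% of genes, and whether they were above background is not known. PROCR, the endothelial protein C receptor that marks multipotent mammary stem cells in mice, fell from 9.69, 9.83 and 9.83 to 9.20, 9.05 and 9.02. Its change of -0.69 was 1.61-fold (adjusted p = 0.0047). The integrin subunit ITGB3 fell from 7.58, 7.41 and 7.33 to 6.97, 6.998 and 6.59 (-0.59, adjusted p = 0.0211). The adhesion molecule ALCAM fell from 10.83, 10.73 and 10.93 to 10.46, 10.12 and 10.46 (-0.48, adjusted p = 0.0336). Groups did not overlap for any of these 5, nor for 25.3% of all genes. The 5 were picked by the test on the same arrays, so this is a description and adds no support. MUC1 and PROCR passed whichever array was left out, with adjusted p up to 0.0256 and 0.0295. ITGB3 lost its call without untreated array 1 or 3 (up to 0.0913), ALCAM without any untreated array or selamectin array 2 (up to 0.140), and TSPAN8 without any array except selamectin array 1 (up to 0.119) and in eBayes without the intensity trend (0.0770).

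CD24 and EPCAM, which lie outside the rule for naming genes, are given because sorting schemes pair them with CD44. CD24, described as low in this line, read above the array medians on all 6 arrays, and EPCAM below them. CD24, a small glycosylated surface protein, read 9.58, 9.01 and 9.17 untreated and 8.87, 8.98 and 8.59 with selamectin. The selamectin arrays were the lowest 3, separated from the untreated arrays by less than the spread within either group. The log2 change of CD24 was -0.44 and did not pass (limma adjusted p = 0.126). Without untreated array 1, the highest of the 6, it was -0.28. EPCAM, an epithelial adhesion molecule, changed by -0.27 with overlapping groups (adjusted p = 0.130).

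**Figure D3:**
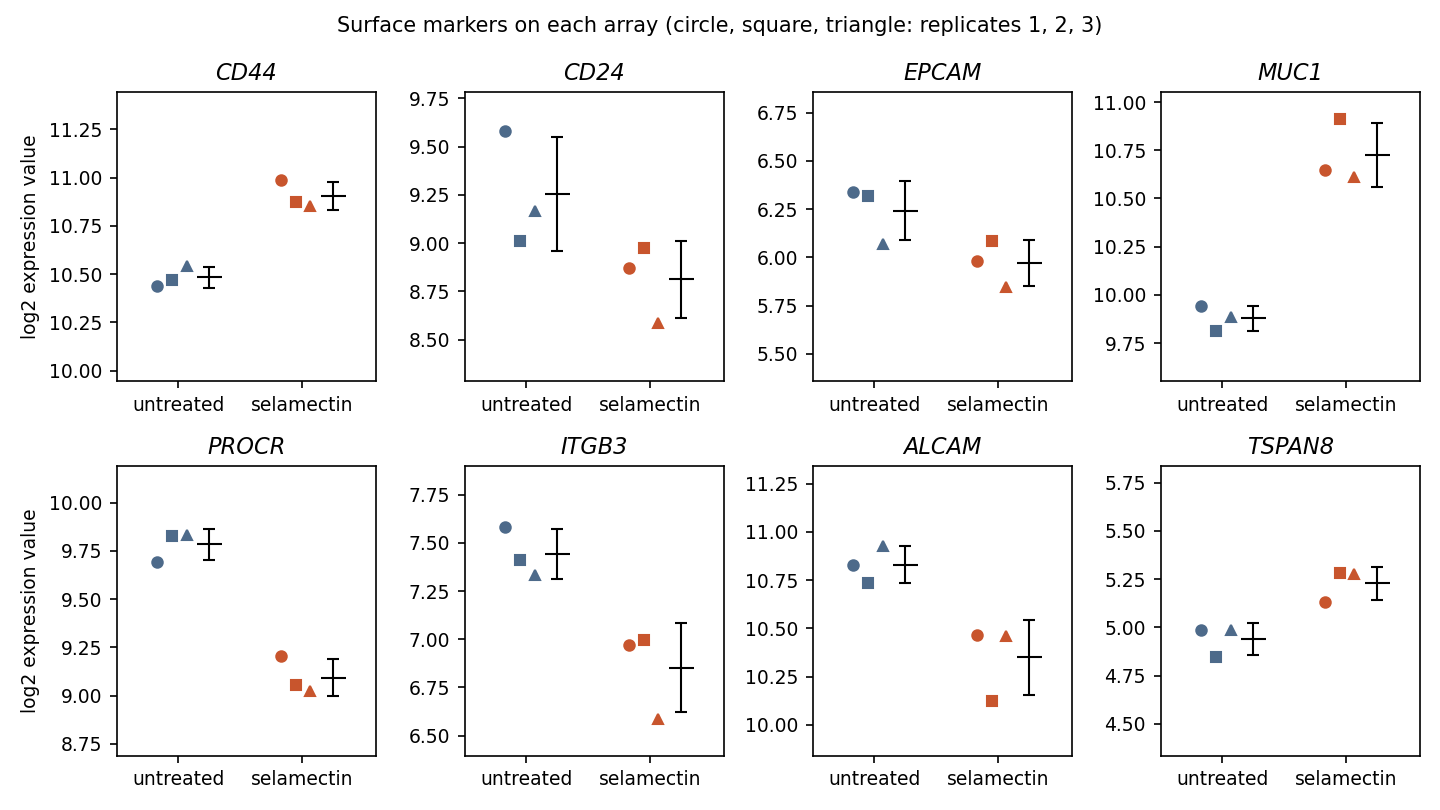
Log2 expression values of CD44 and 7 other surface markers on each array, untreated (blue) and selamectin (orange), with group mean and SD; each panel spans 1.5 log2 units. CD44, MUC1 and TSPAN8 were higher and PROCR, ITGB3 and ALCAM lower past the threshold, while CD24 (-0.44) and EPCAM (-0.27) did not pass.

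Genes that act with CD44 on hyaluronan and the cytoskeleton held 1 call among 16 measured, a fall, with a median of 0.048. Over all genes 4.69% were called, 2.28% as falls. CEMIP2, a cell-surface protein tied to hyaluronan breakdown, went from 11.23, 10.85 and 11.08 to 10.59, 10.45 and 10.45 (-0.56, limma adjusted p = 0.0168). It lost the call without untreated array 1, untreated array 3 or selamectin array 2 (up to 0.0803). The proteoglycan SRGN, a CD44 ligand, stood at -0.21 (adjusted p = 0.131) and the anchor protein ANK3 at -0.28 (0.164). The transcript cluster of CD44 does not separate its standard and variant isoforms, and ESRP1, a factor of CD44 splicing, lay on a cluster with several symbols.

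Aldehyde dehydrogenases outside the marker pair held 3 falls and no rise among 17 measured, with a median of -0.089. Over all genes 2.28% fell and 2.41% rose. ALDH1L2, the mitochondrial enzyme of folate metabolism, fell from 9.61, 9.48 and 9.58 to 9.02, 9.13 and 8.77 (-0.59, limma adjusted p = 0.0151). ALDH6A1, an enzyme of valine breakdown, fell from 10.49, 10.54 and 10.59 to 10.21, 9.95 and 9.87 (-0.52, adjusted p = 0.0190). ALDH2, which clears acetaldehyde in mitochondria, fell from 10.06, 10.18 and 10.05 to 9.81, 9.67 and 9.45 (-0.45, adjusted p = 0.0385). For each of the 3, the selamectin arrays lay below every untreated array, as for 9.3% of all genes. The 3 were picked by the test on the same arrays, so this adds no support. The other 14 members did not pass, with log2 changes from -0.30 to 0.26. Without untreated array 1 or 3 all lost their calls, as did ALDH6A1 without selamectin array 2 and ALDH2 without any array except selamectin array 1, with adjusted p up to 0.0732 for ALDH1L2, 0.0942 for ALDH6A1 and 0.118 for ALDH2. At an unadjusted p under 0.05, 2 members of the family were higher and 5 lower, beside 19.9% of all genes in either direction.

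Genes of retinoid handling, which act before or after the step that ALDH1A1 and ALDH1A3 catalyse, held 1 call among 19 measured. Over all genes 4.69% were called. TGM2, a transglutaminase and a classical retinoic acid target, fell from 11.92, 12.16 and 11.90 to 11.76, 11.41 and 11.34 (-0.49, limma adjusted p = 0.0392), and lost the call without any array except selamectin array 1 (up to 0.150) and in eBayes without the intensity trend (0.0508). STRA6, the retinol uptake receptor, stood at 0.46 (adjusted p = 0.0800) and the receptor RXRA at 0.27 (0.154). The list had 4 genes higher and 2 lower at an unadjusted p under 0.05, beside 19.9% of all genes in either direction. Its median was -0.024.

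No gene of the pluripotency network, the SOX family or the KLF family passed in limma with the intensity trend, dim genes kept and all 6 arrays weighted equally. Of 16 measured pluripotency genes, 0 were higher and 1 lower at an unadjusted p under 0.05, DNMT3B, the de novo DNA methyltransferase, at -0.31 (adjusted p = 0.0671). NANOG and POU5F1 lay on clusters with several symbols and were not analysed here. Of 17 SOX genes beside SOX2 and SOX9, 1 was higher and 1 lower at that level, SOX15 at 0.28 (adjusted p = 0.126) and SOX4 at -0.22 (0.243). Of 16 KLF genes beside KLF4, 0 were higher and 3 lower, KLF15 at -0.38 (adjusted p = 0.0754), KLF12 at -0.30 (0.145) and KLF11, which binds SIN3, at -0.31 (0.155). Some alternatives brought single genes past the threshold. DNMT3B passed with dim genes left out (adjusted p = 0.0499), without the eBayes trend (0.0406) and with array weights (0.0086). SOX15 passed without untreated array 2 (0.0430), and with array weights SOX15 (0.0122), KLF12 (0.0223) and KLF11 (0.0478) did. The medians of the 3 lists were 0.0063, 0.082 and 0.060. Over all genes 19.9% had an unadjusted p under 0.05.

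The polycomb list, which includes CDKN2A and CDKN2B, and the list of SALL and NuRD genes held 1 call together. Over all genes 4.69% were called. The polycomb list had 23 measured genes. From it PCGF6, a subunit of a variant polycomb complex, rose from 9.69, 10.02 and 9.99 to 10.36, 10.24 and 10.50 (0.47, limma adjusted p = 0.0400). It lost the call whichever array was left out (up to 0.153) and when its clusters were averaged. CBX7 stood at -0.26 and PHC1 at -0.25 without passing, and the list's median was 0.037. Among 16 SALL and NuRD genes, a deacetylase complex that SALL4 recruits, limma called none. Before adjustment, 5 of them were higher and 0 lower at a p under 0.05, with HDAC1 at 0.29 (adjusted p = 0.104), MBD2 at 0.23 (0.154) and MTA2 at 0.19 (0.181), and the median was 0.11. Over all 18417 genes, 19.9% had an unadjusted p under 0.05, and 11596 log2 changes were positive and 6821 negative.

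LIN28B acts on let-7 precursors, and 10 let-7 genes (MIR98 included) had a cluster of their own. Their mature 5p arms share 1 seed, bases 2 to 8, in capitals below. The 3 shown are those whose groups did not overlap, chosen after their values were seen. Groups did not overlap for 25.3% of all genes.
let-7g-5p: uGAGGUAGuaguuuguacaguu
let-7e-5p: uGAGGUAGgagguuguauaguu
let-7i-5p: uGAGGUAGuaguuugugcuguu
Clusters of MIRLET7G read 6.05, 5.80 and 5.90 untreated and 5.67, 5.56 and 5.70 with selamectin (-0.28, limma adjusted p = 0.0711). MIRLET7E stood higher, at 0.20 (adjusted p = 0.148), and MIRLET7I lower, at -0.22 (0.185). Of the 10 genes, 8 had a negative and 2 a positive log2 change, from -0.36 to 0.20, and 0 passed. Over all 18417 genes, 6821 log2 changes were negative and 11596 positive. MIRLET7A1, MIRLET7F1 and MIRLET7D lie close together on chromosome 9, and MIRLET7F2 and MIR98 on chromosome X, so the 10 may not be independent. The values of 8 of the 10 genes, all but MIRLET7I and MIRLET7D, lay in the lowest 25% of genes and may not be above background. Whole-transcript labelling reads the locus or its host transcript and not the mature miRNA. Over the whole LIN28 list of 24 genes none passed in limma, and the median was -0.065. At an unadjusted p under 0.05, 1 was higher and 5 lower, beside 19.9% of all genes in either direction. The let-7 targets IGF2BP3 (-0.37, limma adjusted p = 0.0979) and IGF2BP2 (-0.27, 0.134) stood lower without passing. In the same list IGF2BP1 (0.17, 0.418) and HMGA1 (0.11, 0.513) stood higher without passing. Of the 24 log2 changes, 7 were positive and 17 negative.

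The last 2 lists covered partners of PROM1 and targets of SOX9, and mesenchymal regulators. HDAC6, a cytoplasmic deacetylase that binds PROM1, fell from 9.03, 8.997 and 9.12 to 8.76, 8.48 and 8.48 (-0.48, limma adjusted p = 0.0285). It was the 1 call among 10 genes, beside 4.69% of all genes. The call was lost without untreated array 1, untreated array 3 or selamectin array 2 (up to 0.128). PROM2, the prominin paralog, stood at 0.27 (adjusted p = 0.107) and the cartilage gene MATN1 at 0.12 (0.435). None of 13 mesenchymal regulators passed in limma, with 1 higher and 1 lower at an unadjusted p under 0.05: VIM, vimentin, at 0.23 (adjusted p = 0.0909) and FN1, fibronectin, at -0.43 (0.0826). TWIST1 stood at -0.26 (0.263). Over all genes 19.9% had an unadjusted p under 0.05.

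**Figure D4:**
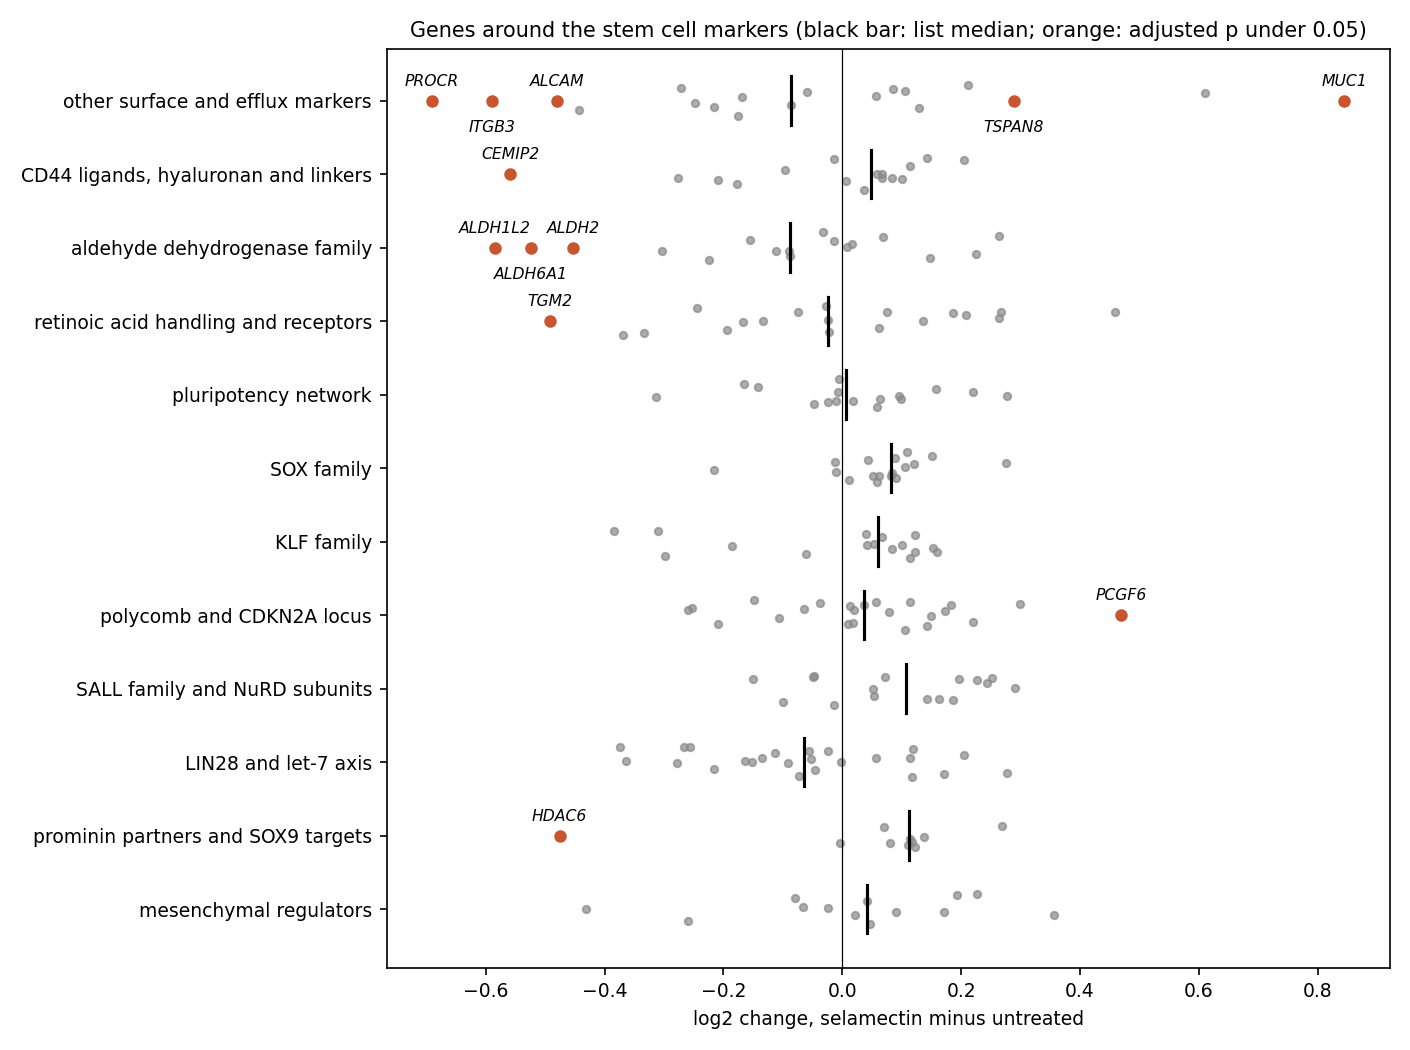
Log2 change (selamectin minus untreated) of each gene in the 12 lists around the markers, 1 point per gene, with list medians as black bars. The 12 named genes (orange) passed the adjusted threshold, 3 higher and 9 lower, and the list medians lie between -0.089 and 0.11.

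Over the 205 distinct genes of the 12 lists, 3 rose and 9 fell, which is 5.85%, beside 4.69% of all genes. Groups did not overlap for 30.7% of them, beside 25.3%. Of the 12 calls, those of MUC1 and PROCR held whichever array was left out.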

How the data were processed

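Total RNA from 6 cultures was labelled by the Affymetrix whole-transcript method, per the labels' protocols. RMA is named in the submitters' processing notes, along with Affymetrix Expression Console and Transcriptome Analysis Console, all without versions or settings. The authors deposited 1 value per transcript cluster, taken here as log2 from its range; the base of the logarithm is not stated. Quantile normalization, usual in RMA, removes a shift of all genes, and changes of dim genes come out compressed. For the arrays' genome build nothing is given in the sources used here.

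Symbols came from the platform annotation: 19460 of 33297 clusters had 1 symbol, 1754 had several and were not named, and 12083 had none. By Entrez number, 19429 were found in RefSeq (GRCh38.p14) and 0 symbols changed. The test was limma 3.58.1 under R 4.3.3 (eBayes with trend), selamectin minus untreated, two-sided, with Benjamini-Hochberg adjustment over 18417 genes. No filter was applied. The fit was tested on simulated data. Intervals are 95% and not adjusted for multiple testing. Precision is limited by the number of arrays. Scan dates and detection calls were not used here. The design text calls the replicates independent without saying how cultures were separated.

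The members and lists were chosen with earlier results of these data known. Named genes are all members and, from each list, every gene past the threshold and otherwise enough of the smallest p-values to give 3. Added to them are the 5 genes most correlated with CD44, small RNA and placeholder symbols left out. Same-numbered arrays of the groups deviated together with r of -0.011, 0.24 and -0.14, and differently numbered arrays with r from -0.21 to 0.30. Deviations from a mean of 3 arrays depend on each other, so these values cannot exclude pairs. The main fit did not treat the numbers as pairs, and a fit with a replicate block is given below.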

Additional observations from a re-analysis of the deposited data

How the results depend on the processing

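Alternatives were a second quantile normalization, median-centred arrays, dim genes left out, eBayes without trend, robust eBayes, array weights, all clusters in the fit, averaged clusters, a replicate block, an adjusted p of 0.1, and each array left out. The named list genes were put through them after their values were seen. Of 140 results for single markers, 125 kept their sign and side of the threshold. Markers called higher numbered 1, against 0 with all clusters in the fit and 0 to 1 with arrays left out; markers called lower numbered 0, against 1 with array weights (SALL4). LIN28B turned sign with the second quantile normalization (0.0023) and with centring (0.0064), and with arrays left out ranged from -0.042 to 0.015. SOX2 then ranged from -0.015 to 0.14 and PROM1 from -0.0085 to 0.076. Genes called higher and lower (444 and 420) became 1822 and 1464 with array weights, 104 and 145 with all clusters and 879 and 723 at an adjusted p of 0.1, and ranged from 76 to 685 and 100 to 464 with arrays left out. List genes called (3 and 9) became 14 and 25 with array weights, 1 and 1 with all clusters and 6 and 14 at 0.1, and ranged from 1 to 5 and 1 to 10 with arrays left out. With the replicate block CD44 still passed (0.42, limma adjusted p = 0.0446), 1 list gene was called higher and 7 lower, and TSPAN8, ALDH2, TGM2 and PCGF6 lost their calls. The cause of these shifts was not tested.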

Other observations

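Some genes of the lists separated selamectin array 3 from the other treated arrays, which the second principal component also did. They were chosen after their values were seen. CXCR4, the chemokine receptor of migrating breast cancer cells, read 10.31, 10.04 and 10.17 untreated and 11.07, 11.00 and 10.27 with selamectin (log2 change 0.61, limma adjusted p = 0.0788). SNAI2, the mesenchymal repressor SLUG that partners SOX9 in mammary stem cells, read 10.68, 10.96 and 11.09 untreated and 11.46, 11.55 and 10.78 with selamectin (0.36, adjusted p = 0.304). On array 3 both lay within the untreated range, while arrays 1 and 2 lay above it. CD44 did not share that split, since its array 3 value of 10.85 was close to the 10.87 of array 2.

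CDKN2A, the cell-cycle inhibitor locus repressed by BMI1, read between 11.12 and 11.32 on all 6 arrays, above the array medians, with a log2 change of 0.018 (limma adjusted p = 0.928). MDA-MB-231 cells are commonly described as having lost this locus. CDKN2B, its neighbour, read between 9.52 and 9.91. What these clusters measured is not known without detection calls, and neither the specificity of their probes nor the identity of the line was tested here.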
